A study of Mus musculus with 7 samples.

Results

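The mitochondrial genome of the mouse carries 37 annotated genes, and 16 of them appear in the authors' deposited table of genes that differed between neural stem cells with reduced KAP1 and control cells. These 16 are the transcripts described here. They were chosen as the lines of that table whose Ensembl identifier, with its version removed, lies on the mitochondrial chromosome in GENCODE M21, and they stand among 3389 listed genes. All 16 were higher in shKAP1 cells, by 1.21-fold (mt-Nd3) to 1.90-fold (mt-Tp). The cells were grown from the subventricular zone (SVZ) of the mouse brain in medium with EGF and FGF-2. The shKAP1 group has 4 samples nucleofected with a short hairpin RNA against KAP1, the protein of the gene Trim28. The control group has 3 samples. Library names number the controls 1, 2 and 4 and the shKAP1 samples 1, 2, 3 and 4. They do not say whether a shared number marks a pair. The labels state neither strain, age nor hairpin sequence, nor what the control cells received, nor whether each sample is a culture or an animal of its own, so the spread behind the p-values may be technical.

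RNA was selected with poly-T beads and sequenced as strand-specific libraries. The authors' deposited table gives 1 line per gene with a mean normalized count over the samples, a log2 fold change, a standard error (SE) and the adjusted p of DESeq2, and it has no value per sample. The level of a member in each library, and hence any overlap of the groups, cannot be shown, and the SE stands for the spread. The table holds genes with an adjusted p under 0.05, which are 26.3% of the 12905 genes tested. Of these 12905 genes, 12.6% were listed as higher and 13.7% as lower in shKAP1 cells. Signs were read from Trim28, the targeted gene, which the authors' deposited table puts at a log2 fold change of -1.17 (SE 0.05). Of 14 neural stem cell markers, 4 were listed, all higher, among them Vim and Fabp7, with mean normalized counts of 193157 and 191269 in the authors' deposited table. Of 10 neuroblast and neuron markers 4 were listed, all lower, Dcx at a log2 fold change of -0.62 in the authors' deposited table, and none of 10 microglia markers was listed. Of 10 oligodendrocyte lineage markers 2 were higher and 1 lower. Of 10 endothelial and mural cell markers 2 were listed, the smooth muscle genes Acta2 and Tagln, both higher, at mean normalized counts of 133 and 127 in the authors' deposited table. Of 10 ependymal markers 1 was listed, Foxj1, as higher. Whether a shift between cell types has a part in the mitochondrial values was not tested, and in bulk RNA more cells rich in mitochondria cannot be told apart from more transcript per cell.

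Mitochondrial DNA is a small circle kept in many copies per cell. Each of its strands is read as a long precursor, transcribed by the polymerase POLRMT with the factors TFAM and TFB2M, and most messenger and ribosomal RNAs are freed when the transfer RNAs (tRNAs) between them are cut out. Most messenger RNAs are then polyadenylated inside the organelle, which in several of them completes the stop codon. The encoded proteins are core subunits of respiratory complexes I, III and IV and of the ATP synthase, complex V, and the other subunits are imported products of nuclear genes. Neural stem cells are known for relying on glycolysis, and respiration increases as they differentiate into neurons.

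Polyadenylation and the crowding of genes bear on how these transcripts are measured, and the following stretches show both. Of the 13 protein-coding genes, 8 end in TAA and 2 in TAG, and 3 end in a lone T, which a poly(A) tail extends to a stop codon. The last 24 bases of those 3, and of mt-Co1 as an example with a full stop codon, are shown in the sense of the transcript, 5′ to 3′, with the stop letters in capitals, from the GENCODE M21 transcripts on GRCm38.
mt-Co3, chrM:9367-9390, plus strand: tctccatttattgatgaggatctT
mt-Nd4, chrM:11521-11544, plus strand: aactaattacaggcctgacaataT
mt-Cytb, chrM:15265-15288, plus strand: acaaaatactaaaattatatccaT
mt-Co1, chrM:6849-6872, plus strand: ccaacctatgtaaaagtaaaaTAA
The log2 fold changes of the 3 genes with a lone T, 0.41, 0.50 and 0.42 in the authors' deposited table, lie within the range of the other 10, 0.27 to 0.56.

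Both pairs of genes that share a bicistronic messenger RNA overlap, so a read from the overlap can belong to either gene. The 43 bases common to mt-Atp8 and mt-Atp6 are shown with the start codon of mt-Atp6 and the stop codon of mt-Atp8 in capitals. The junction of mt-Nd4l and mt-Nd4 is shown with its 7 common bases in capitals.
mt-Atp8/mt-Atp6, chrM:7927-7969, plus strand: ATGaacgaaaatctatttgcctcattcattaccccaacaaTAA
mt-Nd4l/mt-Nd4, chrM:10155-10185, plus strand: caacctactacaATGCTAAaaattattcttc
The proline tRNA mt-Tp is the single tRNA gene in the table and is shown whole, with its anticodon in capitals, in the sense of its transcript. The longest run of A within the ribosomal RNA mt-Rnr2, 7 bases, is shown because ribosomal RNAs carry short tails at most and the libraries were selected by poly-T. The run is not particular to mt-Rnr2. The longest was 8 bases in mt-Nd2, 7 in mt-Co1, mt-Nd4 and mt-Nd5, and 5 in the other ribosomal RNA, mt-Rnr1. Whether such runs have a part in the capture of these RNAs was not tested.
mt-Tp, chrM:15356-15422, minus strand: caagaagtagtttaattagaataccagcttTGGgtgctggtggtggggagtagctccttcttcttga
mt-Rnr2, chrM:1476-1506, plus strand: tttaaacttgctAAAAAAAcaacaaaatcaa

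All 13 protein-coding genes and both ribosomal RNAs were listed, and every one of them was higher in shKAP1 cells. Of the 22 tRNA genes, mt-Tp was listed, as higher, and 21 were not listed, with no value for them in the table. No mitochondrial gene was listed as lower. Because a gene enters the table only with an adjusted p under 0.05, this count is how the members were chosen and is given without a test, beside the 12.6% of all tested genes that were listed as higher. Their median log2 fold change was 0.50, a 1.41-fold higher level, with a range of 0.27 to 0.93, against a median of 0.29 over all 1621 genes listed as higher. Of the 16 members, 15 lay above that median.

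**Figure D1:**
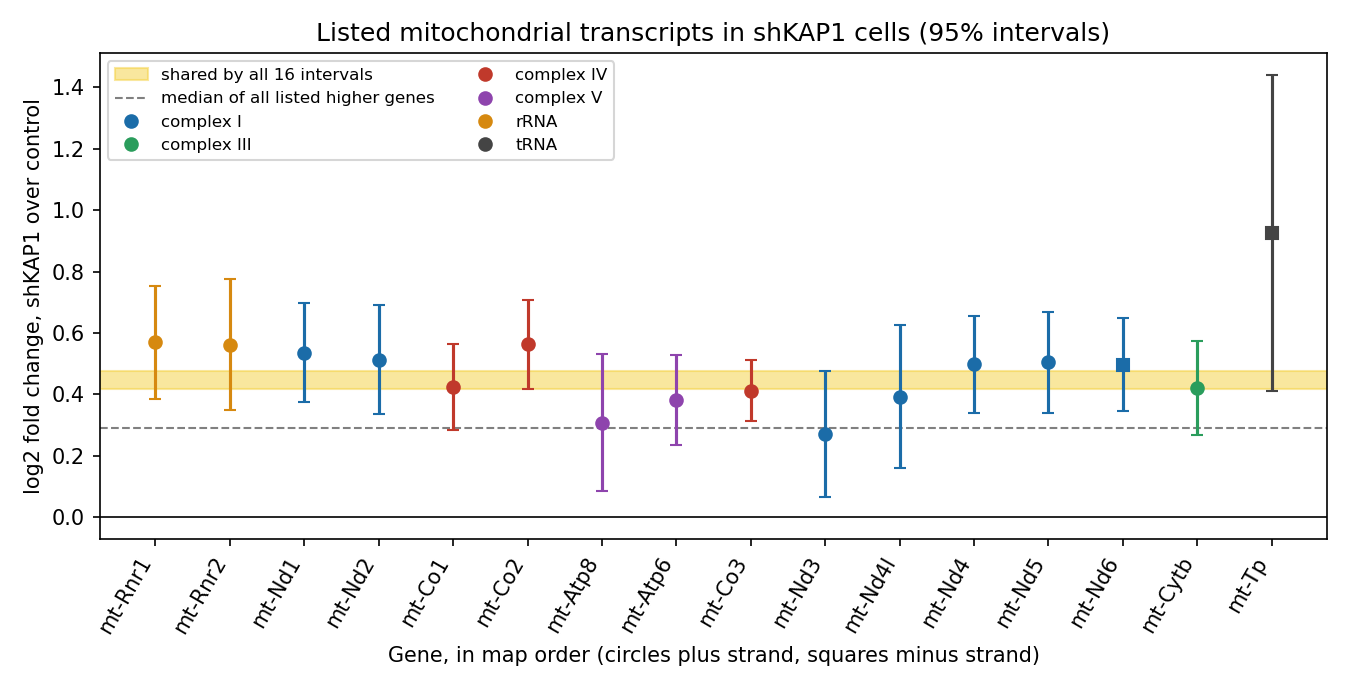
log2 fold change of shKAP1 over control for the 16 listed mitochondrial transcripts, in map order along the genome, from the authors' deposited table. Bars are 95% intervals from the SE, colours mark the complex or RNA class, the band from 0.42 to 0.48 lies inside every interval, and the dashed line at 0.29 is the median of all genes listed as higher. All 16 points lie above 0, and mt-Tp has the widest interval.

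The 7 genes of complex I, the NADH dehydrogenase that feeds electrons into the chain, had a median log2 fold change of 0.50. The authors' deposited table gives mt-Nd1 (ENSMUSG00000064341.1, chrM:2751-3707), which forms part of the membrane arm where ubiquinone binds, at 0.54 (SE 0.08), and the proton-pumping subunit genes mt-Nd2 (chrM:3914-4951) at 0.51 (SE 0.09) and mt-Nd5 (chrM:11742-13565) at 0.50 (SE 0.08). mt-Nd4 (chrM:10167-11544), for another proton-pumping subunit, and mt-Nd6 (chrM:13552-14070, minus strand), for a further part of the membrane arm, both stood at 0.50, with SEs of 0.08, in the authors' deposited table. These 5 complex I genes thus sat within a narrow band, although mt-Nd6 comes from the opposite strand to the others. The 2 remaining ones are short membrane subunit genes and were lower in fold: the authors' deposited table gives mt-Nd4l (chrM:9877-10173) at 0.39 (SE 0.12) and mt-Nd3 (chrM:9459-9806) at 0.27 (SE 0.10).

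Complex III has 1 mitochondrial gene, mt-Cytb (chrM:14145-15288), for cytochrome b, which the authors' deposited table puts at a log2 fold change of 0.42 (SE 0.08). Of complex IV, cytochrome c oxidase, mt-Co2 (chrM:7013-7696), whose product takes electrons from cytochrome c, had the highest log2 fold change of the 13 protein-coding genes in the authors' deposited table, 0.56 (SE 0.07). The catalytic subunit gene mt-Co1 (chrM:5328-6872) was at 0.42 (SE 0.07) and mt-Co3 (chrM:8607-9390) at 0.41 (SE 0.05) in the authors' deposited table. mt-Co3 had the smallest SE and the smallest adjusted p of the members, 5.43e-14 by DESeq2 in the authors' deposited table. The ATP synthase genes gave lower values, with mt-Atp6 (chrM:7927-8607), for the subunit beside the rotor, at 0.38 (SE 0.07) and mt-Atp8 (chrM:7766-7969), for a small peripheral subunit, at 0.31 (SE 0.11) in the authors' deposited table.

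Among the RNAs of the mitochondrial ribosome, mt-Rnr1 (chrM:70-1024), of the small subunit, stood at 0.57 (SE 0.09) and mt-Rnr2 (chrM:1094-2675), of the large subunit, at 0.56 (SE 0.11), as log2 fold changes of the authors' deposited table. The 2 ribosomal RNAs lie next to each other at the start of the precursor that also carries 12 of the 13 protein-coding genes, and their fold changes were nearly equal. mt-Tp had the highest log2 fold change of all members, 0.93, and also the highest SE, 0.26, in the authors' deposited table. Its 95% interval on the log2 scale, 0.41 to 1.44, takes in the estimates of all the other members except mt-Atp8, mt-Atp6, mt-Nd3 and mt-Nd4l, and its mean normalized count of 272 was the lowest of the 16 in the authors' deposited table.

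The order of the members is not well resolved. The 95% intervals, from the SE under a normal approximation, all contain the stretch from 0.42 to 0.48 on the log2 scale, a 1.34-fold to 1.39-fold higher level. Its lower end is the lower bound of mt-Co2 and its upper end is the upper bound of mt-Nd3. The members were measured in the same samples and come from shared precursors, so they are not independent, and no test of the differences between them was made. For 12 of the 16, the interval lay wholly above 1.2-fold, and those that did not were mt-Atp8, mt-Atp6, mt-Nd3 and mt-Nd4l. The members closest to the limit of the table were mt-Nd3, at a DESeq2 adjusted p of 0.0403, and mt-Atp8, at 0.0303, in the authors' deposited table, and members just outside the limit have no line in it.

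By strand, 14 of 28 genes on the plus strand and 2 of 9 on the minus strand were listed. The 14 plus-strand members, all of which belong to the heavy-strand precursor, had a median log2 fold change of 0.46 with a range of 0.27 to 0.57. The 2 minus-strand members, mt-Nd6 and mt-Tp, come from the light-strand precursor, on which mt-Tp is the gene nearest the promoter, and stood at 0.50 and 0.93 in the authors' deposited table. Along the heavy-strand precursor, the members nearest its start, the ribosomal RNAs at 0.57 and 0.56 and mt-Nd1 and mt-Nd2 at 0.54 and 0.51 in the authors' deposited table, were among the higher values, and so was mt-Co2, in the middle, at 0.56. Spearman's rho between map order and log2 fold change was -0.57 over the 14 genes, and -0.67 over the 11 of at least 400 bases. These 2 correlations were computed after the values had been seen, the genes share precursors and samples, and mt-Co2, with mt-Nd4 and mt-Nd5 far from the start at 0.50 in the authors' deposited table, stand outside a steady decline.

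Levels spanned a wide range. Per kilobase of transcript, the mean normalized count was highest for mt-Co1, at 215969, followed by mt-Co3 at 195126 and mt-Co2 at 156080, computed from the authors' deposited table, so that the complex IV genes led. mt-Atp6 had 126584 and mt-Cytb 114829 per kilobase, computed from the authors' deposited table, and these 5 genes were among the 20 listed genes of highest level per kilobase. That rank is rough, because the length used is the median over annotated transcripts. Short annotated transcripts raise the level per kilobase of some nuclear genes. The complex I genes lay between 10657 for mt-Nd4l and 92966 for mt-Nd1 per kilobase, from the same table. mt-Nd6, the only messenger RNA of the light strand, had 16505, and mt-Co1 was 13.1-fold above it. With selection by poly-T, this ratio also depends on the poly(A) tail of each RNA, which was not measured. The ribosomal RNAs, the most abundant RNAs of the organelle in total RNA, had only 18412 for mt-Rnr2 and 5947 for mt-Rnr1 per kilobase in these poly(A)-selected libraries, from the authors' deposited table. The members made up 5.23% of the summed mean normalized count of all listed genes, and mt-Co1 alone 27.9% of the members' sum.

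**Figure D2:**
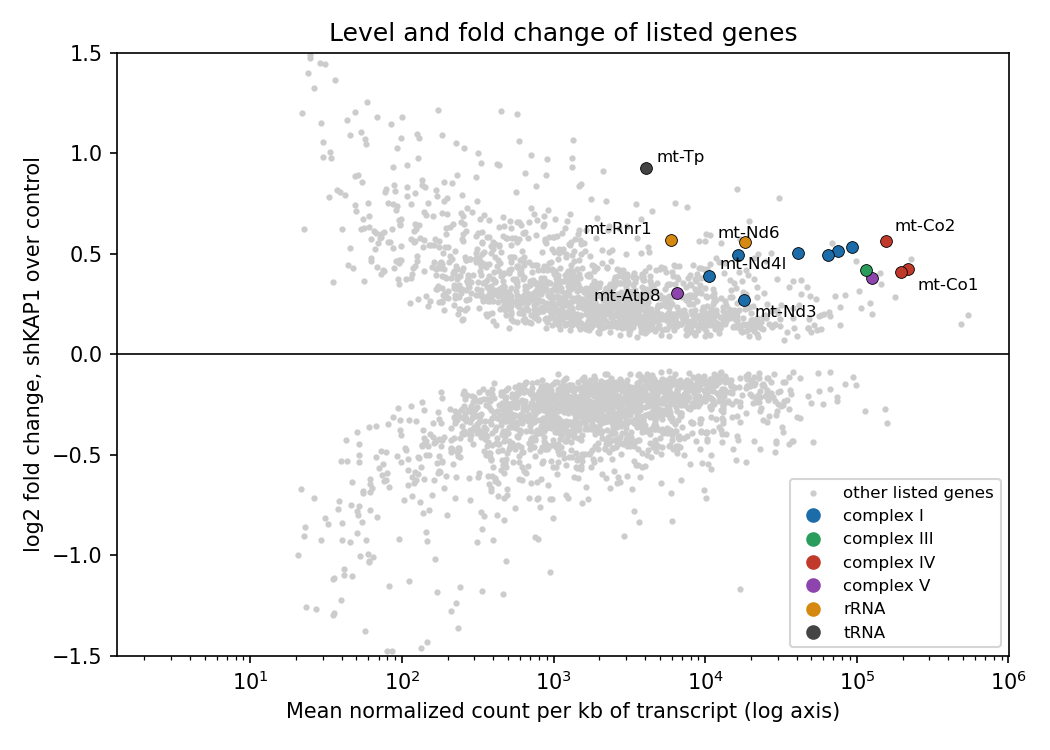
log2 fold change of shKAP1 over control against the mean normalized count per kilobase of transcript (log axis) for the listed genes, from the authors' deposited table; coloured points are the 16 mitochondrial members by class and grey points the other listed genes. The vertical axis ends at 1.5 in both directions and leaves out 16 other genes, and the mitochondrial points lie in the upper right, at 4054 per kilobase and above.

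Fold change was not ordered by level. Over the 13 protein-coding genes, Spearman's rho between log2 fold change and the mean normalized count per kilobase was 0.31, and over the 15 members without mt-Tp it was 0.02. Length showed more of a relation, with a rho of 0.57 over the 13 genes, and it rests on the short ones. The 3 protein-coding genes under 400 bases, mt-Atp8, mt-Nd4l and mt-Nd3, had a median log2 fold change of 0.31 and 6524 to 18126 mean normalized counts per kilobase, from the authors' deposited table. The 10 longer ones had a median of 0.50 and 16505 to 215969 counts per kilobase. Within a bicistronic messenger RNA the 2 parts were counted very unequally, with mt-Atp6 at 19.4-fold the level of mt-Atp8 per kilobase and mt-Nd4 at 6.09-fold that of mt-Nd4l. How reads of the overlaps and of such short genes were assigned is not stated, so the values of mt-Atp8 and mt-Nd4l are uncertain.

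Nuclear copies of mitochondrial sequence add to this. Words of 31 bases, the default length by which kallisto assigns reads, were looked up in all nuclear transcripts of GENCODE M21 on both strands, and 22 nuclear genes shared at least 1 with a listed member, of which 11 are annotated as unprocessed and 9 as processed pseudogenes, 1 as a transcribed processed pseudogene and 1 as protein-coding. Of the 22, 8 lie on chromosome 1. None of the 22 is in the table. mt-Co2 shared 100% of its words, mt-Co3 99.9%, mt-Atp6 99.5%, mt-Nd4l 98.9% and mt-Nd3 98.1%, followed by mt-Co1 with 63.9% and mt-Nd4 with 62.8%. The other 9 members shared at most 16.8%, and mt-Rnr1, mt-Nd1 and mt-Tp shared none. The 9 had a median log2 fold change of 0.51 with a range of 0.31 to 0.93, and the 7 with most of their words shared had a median of 0.41 with a range of 0.27 to 0.56. Every listed member was higher, so the direction in any subset of them was fixed in advance. Whether reads from nuclear copies have a part in the values was not tested. Which annotation the authors counted against is not stated.

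Compared with other abundant transcripts in the table, taken in both directions, the mitochondrial ones had a higher median fold change and a larger median error. The 9 members with a mean normalized count of at least 50000 had log2 fold changes of 0.38 to 0.56 with a median of 0.50, and a median SE of 0.08. Of the 51 other listed genes at that level, 31 were higher and 20 lower. Over all 51 the median log2 fold change was 0.19, with a range of -0.44 to 0.78 and a median SE of 0.05. That median includes the 20 lower genes, whereas all 9 members were higher. The ranges overlap, so the values are not particular to the mitochondrial genes. No test was made between the 2 sets, since both were selected by the same adjusted p.

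Their base composition sets them apart from most other listed genes. The median share of G and C was 50.4% over the other listed genes, and 53.3% over those of them listed as higher. The members' transcripts hold 31.9% to 44.8% G and C, with a median of 36.5%. Of the 672 other listed genes in that range, 156, or 23.2%, were higher and 516 were lower, and the median log2 fold change was -0.22. At or under 37.1%, the median GC content of the mitochondrial protein-coding genes, 1 of 15 other listed genes was higher. Over all 3373 listed genes outside the mitochondrial genome, 47.6% were higher. The mitochondrial transcripts had the opposite sign to most listed nuclear genes in that range. The 672 are not closely matched, as their median GC content was 42.5%, and the upper end of the range is set by mt-Tp. Whether base composition has a part in the values was not tested. Only listed genes could be compared.

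**Figure D3:**
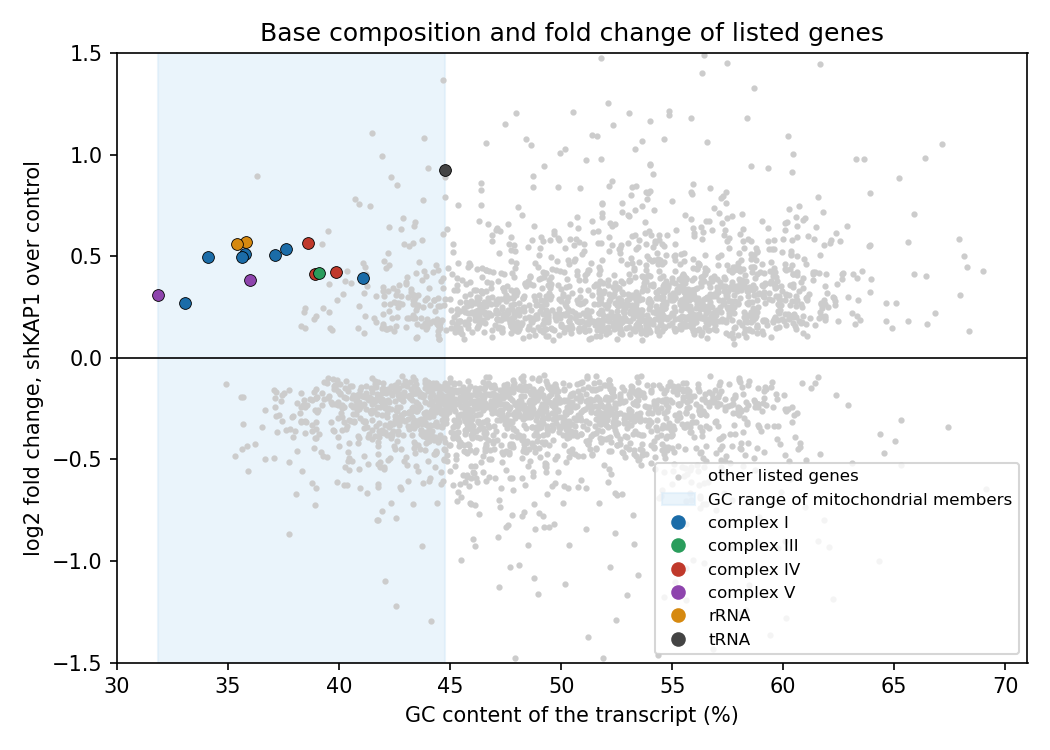
log2 fold change of shKAP1 over control against transcript GC content for the listed genes, from the authors' deposited table and GENCODE M21 sequences; coloured points are the 16 mitochondrial members and grey points the other listed genes, with the vertical axis ending at 1.5 in both directions. In the shaded GC range of the members, 31.9% to 44.8%, most grey points (516 of 672) lie below 0 and all coloured points above it.

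The partner subunits encoded in the nucleus were also higher where listed, by less. Of 84 nuclear genes for subunits of complexes I to V, 26, or 31%, were listed, all as higher, with log2 fold changes of 0.11 to 0.32 and a median of 0.16, against 12.6% of all tested genes listed as higher. By complex, 12 of 37 were listed for complex I, 3 of 4 for complex II, which has no mitochondrial gene, 3 of 9 for complex III, 4 of 16 for complex IV and 4 of 18 for complex V. The smallest adjusted p belonged to Atp5d, an ATP synthase subunit at 0.22 (SE 0.04), Sdhc, a membrane anchor of succinate dehydrogenase at 0.18 (SE 0.04), Cox6b2, a complex IV subunit known from testis at 0.32 (SE 0.07), and Ndufs7, a complex I iron-sulfur subunit at 0.18 (SE 0.05), in the authors' deposited table. Of the 13 mitochondrial protein-coding genes, 11 had a log2 fold change above that of every listed nuclear subunit, and for 10 the lower bound of the interval lay above 0.16, the nuclear median. Conversely, 1 nuclear subunit, Cox6b2, exceeded mt-Nd3 and mt-Atp8, the lowest mitochondrial values. The other 58 nuclear subunits were not listed and have no value. How many genes of this list and of the lists below were tested is unknown. Each list's share is therefore over all its genes, tested or not, unlike the share of all tested genes beside it.

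**Figure D4:**
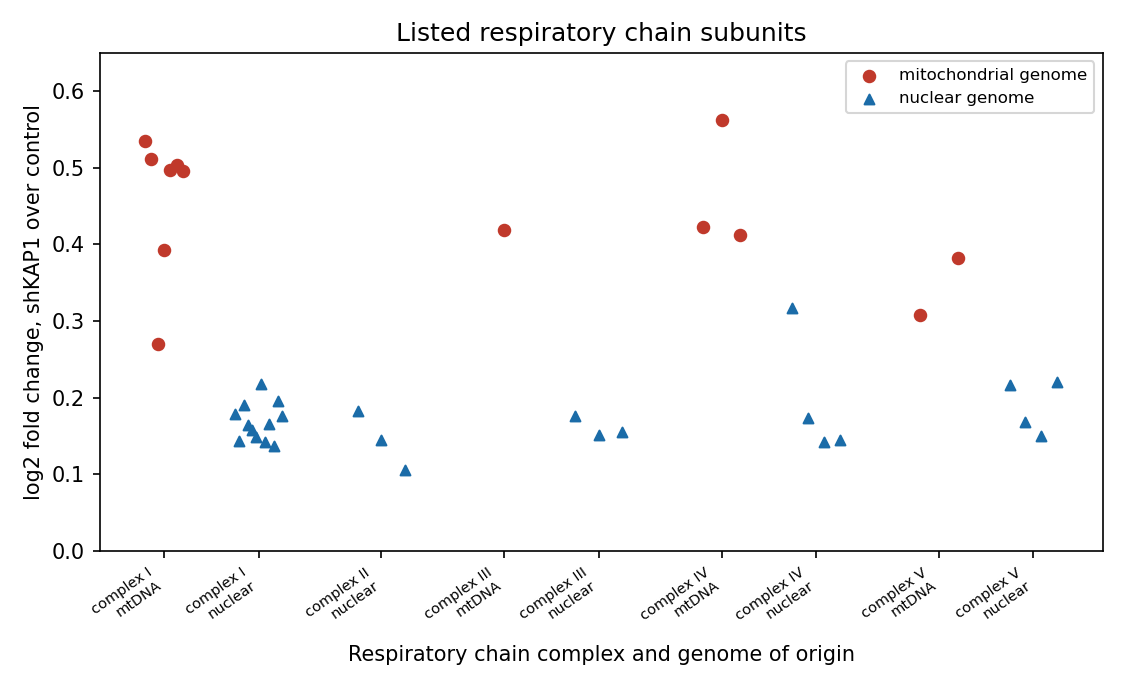
log2 fold change of shKAP1 over control for listed subunits of respiratory complexes I to V, mitochondrial (red circles) beside nuclear (blue triangles), from the authors' deposited table; sideways spread has no meaning. Mitochondrial subunits lie between 0.27 and 0.56 and nuclear ones between 0.11 and 0.32.

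Nuclear genes that copy, transcribe, process and translate the mitochondrial genome went both ways where listed, and most have no value. The translation genes counted are factors and tRNA-charging enzymes, not a set of ribosomal proteins. Of 113 such genes in 5 lists, each counted once, 12 were listed, 6 higher and 6 lower, which is 10.6% against 26.3% of all tested genes. How many of the 113 were tested is unknown, so a low share can also come from untested genes. In the list of 11 genes for transcription, 1 was listed, or 9.09% against 26.3% of all tested genes. It was Twnk, the gene of the mitochondrial DNA helicase, which is also counted in the replication list. The authors' deposited table puts Twnk lower, at -0.16 (SE 0.05) on the log2 scale. The other 10 genes of the transcription list have no value. Polrmt, Tfam and Tfb2m were not listed. Of 25 genes for replication and maintenance, 4 were lower and 1 higher, which is 20% listed against 26.3% of all tested genes. The lower ones in the authors' deposited table were Twnk, the primase-polymerase gene Primpol at -0.65 (SE 0.19), the flap endonuclease gene Fen1 at -0.21 (SE 0.07), which also acts in nuclear replication, and Top3a, a topoisomerase gene, at -0.22 (SE 0.08). The higher one was Slc25a4, the ADP/ATP carrier, at 0.15 (SE 0.05) in the authors' deposited table.

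Few genes of RNA processing were listed. Of 38 genes for RNA processing, polyadenylation and decay, 2 were listed in the authors' deposited table, or 5.26% against 26.3% of all tested genes, both higher: Hsd17b10, a subunit of the enzyme that cuts the 5′ ends of tRNAs, at 0.18 (SE 0.05), and Fastk, known for its part in making the mt-Nd6 messenger RNA, at 0.24 (SE 0.08). Lrpprc and Slirp, which stabilise mitochondrial messenger RNAs, and Mtpap, the poly(A) polymerase, were not listed. Of 18 translation genes, 3 were listed, all higher. That is 16.7%, near the 12.6% of all tested genes listed as higher, while 26.3% were listed in either direction. The authors' deposited table has the membrane insertase gene Oxa1l at 0.20 (SE 0.05). It puts Taco1, a translational activator of mt-Co1, at 0.16 (SE 0.06), and the elongation factor gene Tufm at 0.12 (SE 0.05). Of 22 genes charging mitochondrial tRNAs, 2 were listed, or 9.09% against 26.3% of all tested genes, both lower. Among them was Kars, which also charges cytosolic tRNA, at -0.13 (SE 0.04) in the authors' deposited table.

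Regulators of mitochondrial biogenesis went both ways. Of 20 genes, 3 were higher and 4 lower, which is 35% listed against 26.3% of all tested genes. The authors' deposited table puts Creb1, a cyclic-AMP response factor, at -0.37 (SE 0.05), Gabpa, a factor for nuclear respiratory genes, at -0.21 (SE 0.05), Nrf1, another such factor, at -0.24 (SE 0.09) and the deacetylase gene Sirt1 at -0.20 (SE 0.07). Higher ones of the authors' deposited table were the orphan receptor genes Esrra, at 0.29 (SE 0.09), and Esrrg, at 0.38 (SE 0.12), which drive oxidative metabolism genes, and Ppard, at 0.28 (SE 0.10). Ppargc1a, the coactivator best known for inducing mitochondrial biogenesis, was not listed.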

How the data were processed

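RNA-seq libraries of 4 shKAP1 and 3 control samples took their group from the library name. Tools named in the submitters' processing notes are Trim Galore 0.4.4, kallisto and DESeq2, with GRCm38 as build; the sources used here give no annotation, model formula or list of libraries fitted. Per the file headers, the authors deposited 1 line per gene, with a normalized count averaged over samples (a signal), a log2 fold change with its SE, a signed fold (a score that repeats the log2 column), a Wald statistic score, and a p-value with its adjusted p-value. Nothing was refitted, since the file is 1 comparison, not counts per sample; depth per sample is unknown.

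The number of tested genes, 12905, was recovered from adjusted p times rank over p, a step checked on simulated p-values. Symbols, positions and transcript sequences came from GENCODE M21 (GRCm38), which matched 3388 of 3389 identifiers, and all 16 mitochondrial ones with their version. Levels per kilobase used the median annotated transcript length, and GC content the median over transcripts. Of 302 entries in 18 gene lists, 301 matched a symbol, Mtrfr being unmatched. Members and lists were chosen with earlier results of these data known. Named genes were all listed members, Trim28, and up to 4 listed genes per list by adjusted p; Top3a, Nrf1, Ppard and Sirt1, and the genes named as not listed, were added after their values or absence had been seen. The value of 1 listed gene that this rule names is not reported here. Python 3.11.15, pandas 2.3.3 and SciPy 1.17.1 were used.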

Additional observations from a re-analysis of the deposited data

How the results depend on the processing

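Every setting is a limit on, or a subset of, the same deposited fold changes, so none could change a direction. Of the 16, 14 passed an adjusted p under 0.01 (without mt-Atp8 and mt-Nd3), 12 passed a Bonferroni limit (without those and mt-Nd4l and mt-Tp), 12 had an interval beyond 1.2-fold, and all 16 had a mean normalized count of at least 100; with a 2-fold minimum 0 were left. Their median log2 fold change of 0.50 became 0.42 in protein-coding members, 0.51 without the overlapping pairs, 0.46 as an inverse-variance weighted mean and, in an alternative chosen after seeing the data, 0.51 in the 9 members that share at most 50% of their words with nuclear transcripts. The genes listed as higher, 1621, and lower, 1768, became 45 and 37 with a 2-fold minimum, 394 and 536 at the Bonferroni limit, 311 and 320 with intervals beyond 1.2-fold, and 1056 and 1227 under 0.01. The 26 nuclear respiratory chain genes became 11 under 0.01, 2 at the Bonferroni limit and 0 with either fold limit, by construction of stricter limits. No paired analysis was possible because values of single libraries are lacking; leaving out replicates, other normalizations and a filter on counts per sample before the fit were not run for the same reason.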

Other observations

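Genes of mitophagy and mitochondrial dynamics were seldom in the table. Of 20 such genes, 1 was higher and 1 lower, 10% against 26.3% of all tested genes. How many of the 20 were tested is unknown. Mfn1, a mitofusin that joins outer membranes, and Sqstm1, an autophagy receptor, have log2 fold changes of 0.21 (SE 0.06) and -0.19 (SE 0.07) in the authors' deposited table. Pink1, Opa1 and Dnm1l were not listed.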
